A study of Oryza sativa Japonica Group with 6 samples.

Results

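Late embryogenesis abundant (LEA) proteins, among them the dehydrins, are small and very hydrophilic proteins that plants make in ripening seeds and in tissues that lose water. A set of 9 such loci is described here. With earlier results of these data known, the loci were chosen by identifier among the gene models of the Rice Genome Annotation Project. They were the 4 loci of the RAB16 cluster on chromosome 11, 2 other dehydrins, 2 LEA loci of the group called LEA3-type here and the Em locus. They hold 13 of the 66153 transcript models and 9 of the 55801 loci that were measured. Of the 13 models, 11 passed the filter on low values, and each of the 9 loci kept at least its most abundant model.

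The samples were shoots of wild-type Nipponbare rice seedlings grown under continuous light, with 2 RNA-seq libraries per condition and a pool of 20 plants behind each library. Control seedlings were well watered and 10 days old, while seedlings of the dehydration group were 10 days old and lay drying in air for 8 h before sampling. Those of the rehydration group were sampled when 11 days old, after the same 8 h of drying and 24 h with water again. Rehydration and the extra day of age therefore cannot be told apart. The rehydrated shoots held both recovered and damaged leaf parts by the study's description, and a bulk shoot cannot tell fewer cells of a type from less RNA per cell.

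LEA proteins are thought to keep membranes and other proteins in shape when water is scarce. Dehydrins carry a lysine-rich stretch that can fold on membranes, and the RAB genes take their name from their response to abscisic acid (ABA), the hormone that closes stomata and switches on drought genes. Em is named after the early methionine-labelled protein of wheat embryos. In vegetative tissue with enough water, messages of this family are usually scarce.

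Levels are given in RPKM (reads per kilobase of transcript, scaled to the mapped reads of a library), which is per length and so can be compared between loci. Differences were tested on log2(RPKM + 1) with limma over 26790 transcripts, and a locus was called higher or lower when its Benjamini-Hochberg adjusted p was under 0.01 and its fold was over 2. With 2 libraries against 2, an exact permutation test of a single gene cannot go below p = 0.33, so each call leans on a spread shared over the 3 conditions and over transcripts. Between 10605084 and 12301262 mapped reads lay behind each library. Reads given for a single locus are the smallest whole numbers that fit its RPKM and the mapped reads. The true numbers can be a multiple of them. The 7 photosynthetic marker genes, such as those of the small subunit of Rubisco, were abundant in the control shoots and all 7 fell on dehydration, with a summed level of 18152 and 13363 RPKM in the control, 610 and 1610 in dehydration and 14960 and 11508 in rehydration. Of 3 root markers, the RCc3-like LOC_Os04g46830 fell from 20.2 and 10.6 RPKM to 0 in both dehydration libraries, the RCc2-like LOC_Os10g40480 rose from 0.884 and 1.20 to 9.29 and 27.6, and RCc3 itself (LOC_Os02g44310) stayed at or below 2.28 in every library and was not called. Of 3 seed markers, the oleosins LOC_Os04g46200 and LOC_Os05g50110 reached at most 1.66 and 0.730 RPKM, and the 11-S storage family gene LOC_Os05g02520 was not called at a log2 fold change of 0.49. The part of these shifts in the results on the LEA loci was not tested.

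All 9 loci rose on dehydration, with a median log2 fold change of 7.15 against -0.30 over all transcripts tested. The set was chosen with earlier results of these data known, so this direction is not independent evidence. The call rate over all transcripts in that direction was 8.97%. LOC_Os11g26750 passed the filter on low values only through its dehydration libraries, so its call is not independent of that filter. In each of the 9 loci both dehydration libraries lay above both control libraries, which held for 28.0% of all transcripts. After rehydration every one of the 9 loci lay between the other conditions in all its libraries, below both dehydration libraries and above both control libraries. These non-overlapping orders held for 22.7% and 26.9% of all transcripts, respectively. For LOC_Os11g26750 the order against control is not a real separation. Control replicate 1 (0.171 RPKM) and rehydration replicate 1 (0.182 RPKM) each held 1 read and differed only in mapped reads. The summed level of the 9 most abundant models was 25.3 and 77.5 RPKM in the control, 7343 and 5685 in dehydration and 2302 and 1763 in rehydration. As a share of all RPKM in a library this was 0.00446% and 0.0140%, then 1.30% and 1.05%, then 0.402% and 0.313%.

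**Figure D1:**
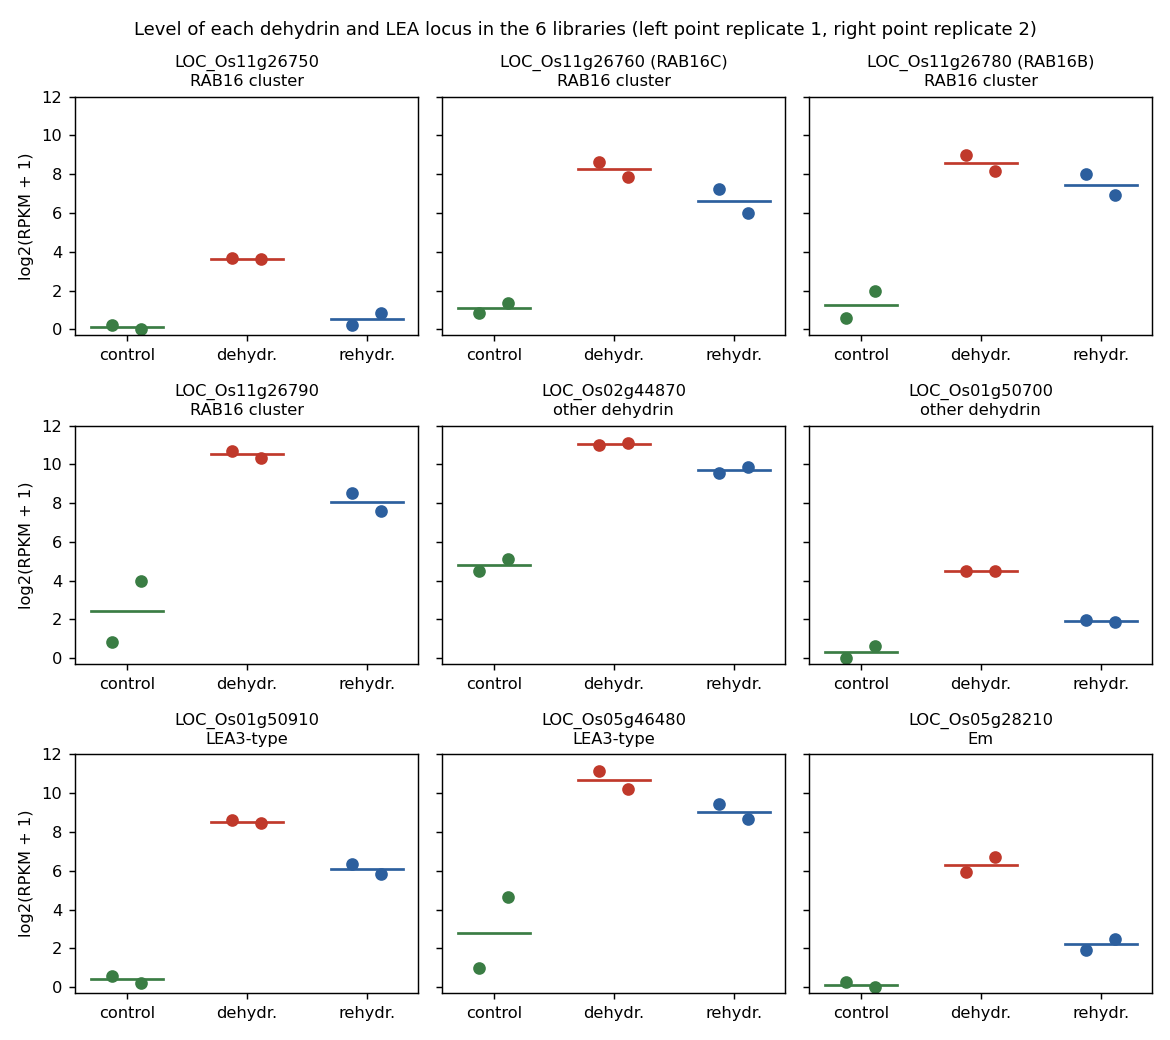
Level of the most abundant model of each locus as log2(RPKM + 1), with 1 point per library (left, replicate 1; right, replicate 2) and a line at the mean of the 2 libraries, for control (green), dehydration (red) and rehydration (blue). In all 9 panels both red points lie above both blue points and both blue points lie above both green points. For LOC_Os11g26750 the lower blue point and the higher green point stand for 1 read each.

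The RAB16 genes are the classic ABA-responsive dehydrins of rice and stand side by side on chromosome 11. LOC_Os11g26790 was the most abundant of the 4 loci of the cluster, at 0.808 and 14.8 RPKM in the control, 1636 and 1298 in dehydration and 362 and 194 in rehydration. The dehydration libraries stood far above all others and the rehydration libraries in between, but the control libraries differed 18.3-fold from each other. On dehydration it rose by 8.09 on the log2 scale (SE 0.95, limma adjusted p = 0.00185). Without dehydration replicate 1 or 2, this locus was no longer called (adjusted p = 0.0180 and 0.0121).

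LOC_Os11g26780, which the study's tables name RAB16B, stood at 0.471 and 2.91 RPKM in the control, 509 and 289 in dehydration and 254 and 121 in rehydration. LOC_Os11g26760, named RAB16C there, stood at 0.818 and 1.56 RPKM in the control, 399 and 233 in dehydration and 149 and 64.0 in rehydration. The 2 genes ran alike, with replicate 1 above replicate 2 both in dehydration and in rehydration and the groups apart in each case. On dehydration RAB16B rose by 7.32 (SE 0.58, limma adjusted p = 0.000694) and RAB16C by 7.15 (SE 0.46, adjusted p = 0.000450) on the log2 scale. Both were uncalled only without control replicate 1, with adjusted p values of 0.0105 and 0.0106.

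LOC_Os11g26750 was by far the scarcest locus of the cluster, at 0.171 and 0 RPKM in the control, 11.7 and 11.3 in dehydration and 0.182 and 0.792 in rehydration. These levels came from 1 and 0 reads in the control, 62 and 66 in dehydration and 1 and 4 in rehydration. The dehydration libraries were thus alone in holding more than a few reads. Per mapped read, dehydration exceeded the control 129-fold, with a counting interval of 22.8 to 5152 (95%) that covers counting error only. Its log2 fold change was 3.53 (SE 0.32, limma adjusted p = 0.000959), a value held down by the 1 added before taking logs, and it was not called without control replicate 1 or 2 (adjusted p = 0.0134 and 0.0126).

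The copies of the cluster resemble each other, and how reads that match several places were assigned is not given in the sources used here, so the split of the level between them is uncertain. The surroundings of the cluster were nearly silent. Of the 11 listed neighbours, 5 on each side and LOC_Os11g26770 inside the cluster, 10 stayed below 1 RPKM in every library and 8 were listed at 0 throughout. LOC_Os11g26770, which lies between RAB16B and RAB16C in locus order, showed 0.144 RPKM in rehydration replicate 2 and 0 elsewhere. The 1 neighbour that was tested, LOC_Os11g26850, fell on dehydration from 257 and 298 to 54.3 and 83.8 RPKM (log2 fold change -2.02).

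LOC_Os02g44870 encodes a dehydrin and had the highest mean level of the 9 loci in the control, with libraries that overlapped those of LOC_Os05g46480. The study measured it by PCR as well, and described it as raised by dehydration and rapidly lowered on re-watering. The primers below are shown because they mark the stretch of this message that was amplified.

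forward: gtatactgggcaagatcatg
reverse: cttgaccaatcttgacacga

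Its level was 21.3 and 33.8 RPKM in the control, 2045 and 2171 in dehydration and 758 and 915 in rehydration. The message was thus present before the treatment, the control libraries differed 1.58-fold, and the groups did not overlap. It rose by 6.24 on the log2 scale on dehydration (SE 0.28, limma adjusted p = 0.000334), which is 77.3-fold in reads per mapped read. The 95% counting interval was 67.7 to 88.7 at the smallest read numbers that fit. In dehydration replicate 2 it ranked 6 among all transcript models by RPKM. In rehydration it kept 39.7% of its dehydration level. Unlike in the study's description, it was not called lower than in dehydration here (limma adjusted p = 0.0232).

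LOC_Os01g50700, a dehydrin family gene that the study's tables call similar to DHN1, was much scarcer, at 0 and 0.560 RPKM in the control, 21.8 and 21.4 in dehydration and 2.90 and 2.64 in rehydration. Its 2 dehydration libraries were nearly equal and lay clear of the rest. The smallest read numbers that fit these levels were 0 and 7 in the control, 268 and 289 in dehydration and 37 and 31 in rehydration. On dehydration the rise was 4.18 on the log2 scale (SE 0.30, limma adjusted p = 0.000578).

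LOC_Os01g50910 is annotated as a group 3 LEA protein, a family of helical proteins found in both seeds and dried leaves. Its main model stood at 0.479 and 0.174 RPKM in the control, 394 and 350 in dehydration and 80.6 and 55.6 in rehydration. From barely detected levels of 3 and 1 reads it reached 2227 and 2176 reads on dehydration. With a log2 fold change of 8.14 (SE 0.24, limma adjusted p = 0.000144), it had the second largest rise of all transcripts tested. The other model of the locus was detected in dehydration alone, at 14.0 and 14.2 RPKM from 87 and 97 reads, and was listed at 0 in the other 4 libraries. With a floor of 3 reads over each group, this was at least 62.0-fold higher than in the control and at least 58.2-fold higher than in rehydration. This model passed the filter on low values through its dehydration libraries alone.

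LOC_Os05g46480, annotated as LEA-like, has 4 models. The main model was at 0.982 and 23.7 RPKM in the control, 2267 and 1209 in dehydration and 693 and 405 in rehydration. The groups did not overlap, although the control libraries differed 24.1-fold, with at least 6 reads in replicate 1 and at least 133 in replicate 2. The rise of 7.89 on the log2 scale (SE 1.10, limma adjusted p = 0.00312) had the largest SE and adjusted p of the 9. Of the 6 fits that each left out 1 library, it was called in the fit without control replicate 2 only, and the fold change ranged from 6.07 to 9.71. A further model, LOC_Os05g46480_4, rose from 0.125 and 1.23 to 57.9 and 50.6 RPKM and then stood at 12.3 and 9.31. The remaining 2 models did not pass the filter, since LOC_Os05g46480_2 reached 0.787 RPKM in dehydration replicate 1 and LOC_Os05g46480_3 was listed at 0 in all libraries.

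LOC_Os05g28210, the Em locus, stood at 0.199 and 0 RPKM in the control, 60.0 and 103 in dehydration and 2.76 and 4.62 in rehydration. Here replicate 2 was the higher dehydration library, opposite to the RAB16 genes, and the rehydration libraries were near the bottom. The reads were 1 and 0 in the control, 272 and 513 in dehydration and 13 and 20 in rehydration. On dehydration the rise was 6.18 on the log2 scale (SE 0.35, limma adjusted p = 0.000394). This locus, LOC_Os02g44870, LOC_Os01g50700 and LOC_Os01g50910 were called in all 6 fits that left out 1 library. The number of loci called on dehydration was 7 or 8 in each such fit, except that it was 5 without control replicate 1.

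By difference of log2(RPKM + 1) on dehydration, 7 of the 9 loci were among the 100 highest of the 26790 transcripts. The exceptions were LOC_Os01g50700 at rank 227 and LOC_Os11g26750 at rank 412. On this scale the added 1 places scarce loci lower. In reads per mapped read these 2 rose 80.5-fold and 129-fold, beside 77.3-fold for LOC_Os02g44870 at rank 33. The first 2 ratios rest on few control reads, with 7 and 1 as the smallest numbers that fit. The levels in dehydration fell into steps. LOC_Os02g44870, LOC_Os05g46480 and LOC_Os11g26790 formed the top step with overlapping libraries, RAB16B, LOC_Os01g50910 and RAB16C overlapped in a middle step, and Em, LOC_Os01g50700 and LOC_Os11g26750 followed, each apart from the next. In the control the order by mean level was LOC_Os02g44870, LOC_Os05g46480, LOC_Os11g26790, RAB16B and RAB16C, and each overlapped its neighbour in this order. LOC_Os02g44870 still lay above both control libraries of LOC_Os11g26790, RAB16B and RAB16C.

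**Figure D2:**
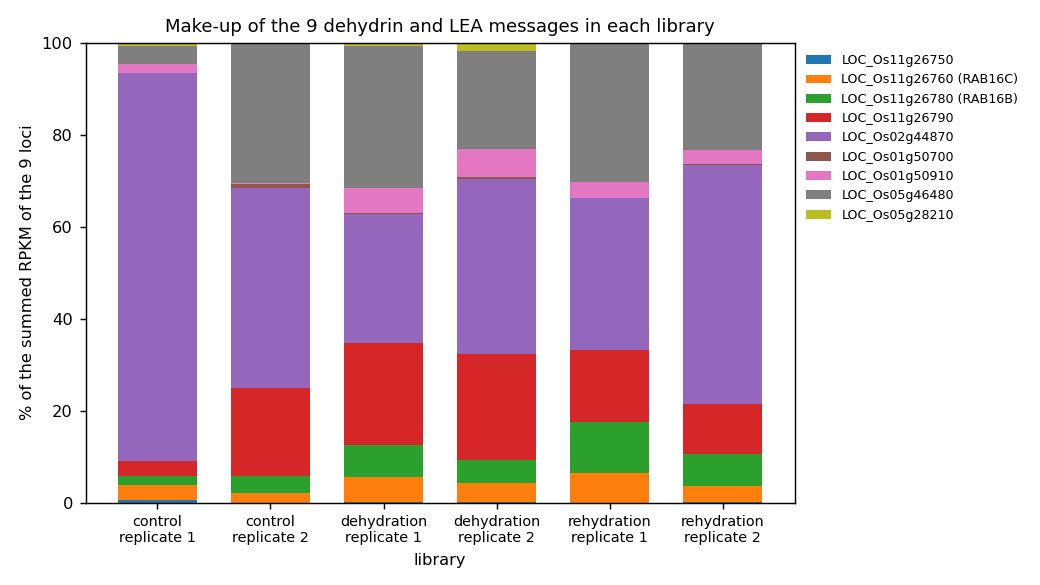
Share of each locus in the summed RPKM of the 9 most abundant models, in percent, for each of the 6 libraries. LOC_Os02g44870 (purple) made up 84.5% in control replicate 1 and 43.6% in control replicate 2, then 27.8% and 38.2% in dehydration and 32.9% and 51.9% in rehydration.

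The make-up of the summed message differed most between the control libraries for LOC_Os02g44870 and LOC_Os05g46480. LOC_Os05g46480 held 3.89% and 30.6% of the sum in the control, 30.9% and 21.3% in dehydration and 30.1% and 23.0% in rehydration. LOC_Os11g26790 held 3.20% and 19.1% in the control and 22.3% and 22.8% in dehydration. Control replicate 2 was thus the library in which the latter pair already took a larger part. In the control, replicate 2 was above replicate 1 in 6 of the 9 loci, and over all transcripts in 58.0%. The log2(RPKM + 1) gap between the control replicates of LOC_Os05g46480 was the 27th largest of the 26790 transcripts and that of LOC_Os11g26790 the 67th largest. The origin of this gap was not tested.

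Rehydration against control asked how much of the rise was still there a day after re-watering. Of the 9 loci, 4 were called higher than in the control, against 0.776% of all transcripts, and the median log2 fold change was 5.52 against -0.001 over all transcripts. The 4 were RAB16B with a log2 fold change of 6.20 (limma adjusted p = 0.00623), LOC_Os01g50910 with 5.69 (adjusted p = 0.00110), RAB16C with 5.52 (adjusted p = 0.00462) and LOC_Os02g44870 with 4.90 (adjusted p = 0.00237). LOC_Os05g46480 and LOC_Os11g26790 were as far from the control, at 6.25 and 5.64, but missed the threshold with adjusted p values of 0.0354 and 0.0303. Among the 9 loci their control libraries were also the farthest apart on the log2 scale. Em, LOC_Os01g50700 and LOC_Os11g26750 had smaller differences of 2.07, 1.59 and 0.43 on this scale, with adjusted p values of 0.0316, 0.0417 and 0.527. These values are held down by the 1 added before taking logs. As a ratio of mean RPKM, Em was 37.1-fold above control, beside 35.6-fold for LOC_Os11g26790 and 30.3-fold for LOC_Os02g44870. The control level of Em rested on 1 read. LOC_Os01g50700 and LOC_Os11g26750 stood at 9.90-fold and 5.71-fold. In a fit without any 1 of the 6 libraries none of the 9 loci was called, and at most 2 of all transcripts were called higher. In those 6 fits the adjusted p ran from 0.0105 to 0.0326 for LOC_Os01g50910 and from 0.0244 to 0.0636 for RAB16B. With all libraries, RAB16B also lost its call with a pseudocount of 0.1 (adjusted p = 0.0182) and with the replicate number as a block (adjusted p = 0.0101). With no filter on low values, both RAB16B and RAB16C lost their calls (limma adjusted p = 0.0206 and 0.0166).

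**Figure D3:**
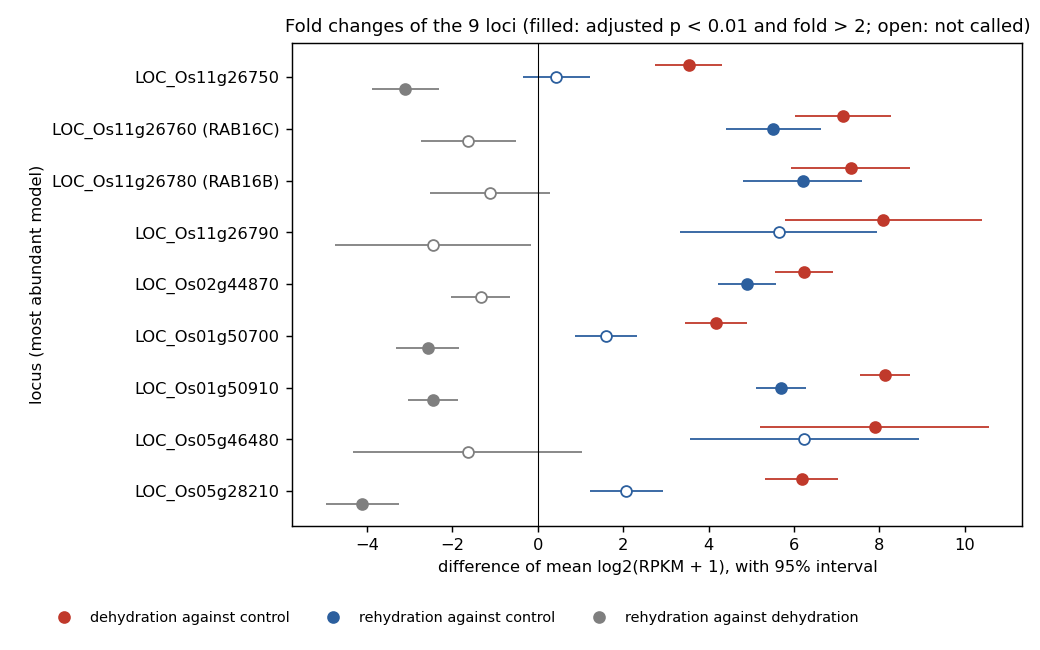
Difference of mean log2(RPKM + 1) with its 95% interval for each locus, for dehydration against control (red), rehydration against control (blue) and rehydration against dehydration (grey), with filled points for calls and open points for no call. All 9 red points are filled, with 4 blue and 4 grey ones, and the widest intervals belong to LOC_Os05g46480 and LOC_Os11g26790.

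Rehydration against dehydration asked how far the messages came down. In this comparison, 4 of the 9 loci were called lower, against 1.01% of all transcripts, with a median log2 fold change of -2.45 against 0.24 over all transcripts. Among the 4, LOC_Os11g26750 passed the filter on low values through its dehydration libraries alone, so its fall is not independent of that filter. Em fell by 4.11 on the log2 scale (limma adjusted p = 0.00446), the 5th largest fall of all transcripts tested. LOC_Os11g26750 fell by 3.11 (adjusted p = 0.00497), LOC_Os01g50700 by 2.58 (adjusted p = 0.00581) and LOC_Os01g50910 fell by 2.45 (adjusted p = 0.00469). LOC_Os11g26790 had a log2 fold change of -2.45 as well, with an adjusted p of 0.113, and those of LOC_Os05g46480, RAB16C, LOC_Os02g44870 and RAB16B were -1.64, -1.63, -1.34 and -1.12 (adjusted p = 0.322, 0.0514, 0.0232 and 0.206). Leaving out dehydration replicate 2 left Em as the only locus called, and leaving out any other library left none. Over these fits the adjusted p of Em ran from 0.00943 to 0.0564 and that of LOC_Os01g50700 from 0.0207 to 0.0581.

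**Figure D4:**
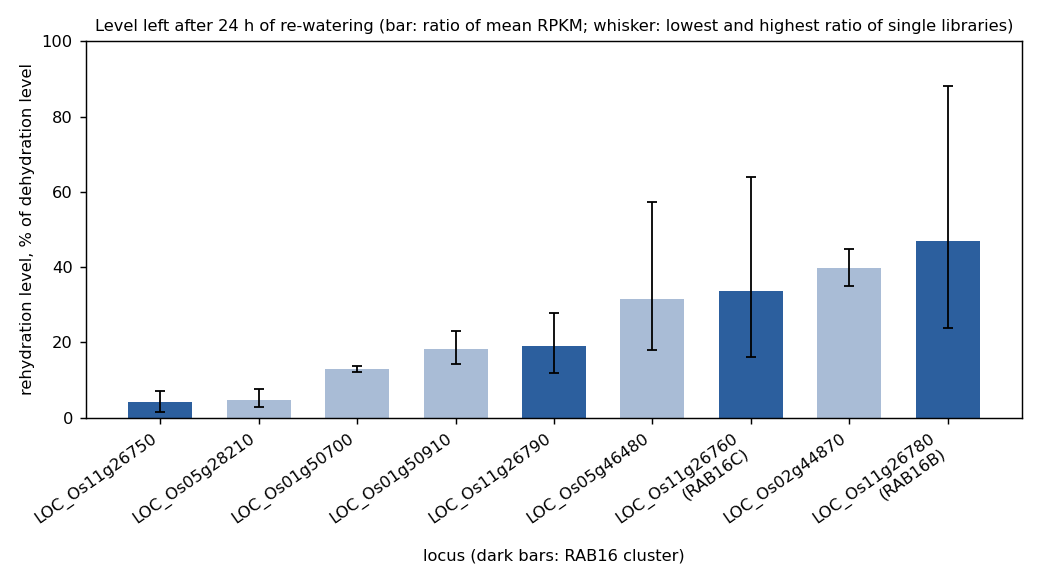
Rehydration level as a percentage of the dehydration level for each locus, as the ratio of mean RPKM (bars, dark for the RAB16 cluster), with whiskers from the lowest to the highest ratio of 1 rehydration to 1 dehydration library. The bars run from 4.23% for LOC_Os11g26750 to 47.0% for RAB16B, and the RAB16 cluster spans that whole range.

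The share of the dehydration level that was left differed widely between the 9 loci. It was 4.23% for LOC_Os11g26750 and 4.54% for Em, with single-library ratios of 1.55% to 6.99% and 2.69% to 7.71%. At the other end it was 39.7% for LOC_Os02g44870 and 47.0% for RAB16B, with ratios of 34.9% to 44.8% and 23.7% to 88.1%. The ratios of the low pair lay below all those of the high pair. Between them were LOC_Os01g50700 at 12.8%, LOC_Os01g50910 at 18.3%, LOC_Os11g26790 at 19.0%, LOC_Os05g46480 at 31.6% and RAB16C at 33.7%. The median over the 9 loci was 19.0%, beside 48.4% over all 2403 transcripts called higher on dehydration, of which the middle portion ran from 33.9% (lower quartile) to 61.4% (upper quartile). A transcript back at its control level still keeps control over dehydration as its share, which is larger for a smaller rise. Most of the 2403 rose less than the 9 loci, so the medians do not compare the speed of return. The 3 loci with the lowest levels in dehydration were also the 3 with the lowest shares left, a description over 9 loci that share the same libraries.

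Most of the other LEA and dehydrin loci rose on dehydration as well. Of 11 such loci, all tested, 9 rose and 0 fell, with a median log2 fold change of 3.01. Over all transcripts 8.97% were called higher and 13.4% lower. In rehydration 1 of the 11 was called higher than the control and 1 lower than dehydration, beside 0.776% and 1.01% of all transcripts. In the study's own list of dehydration-raised genes, from which part of these loci were taken, genes were chosen on these samples, so their direction is not independent evidence. LOC_Os11g26570, similar to the dehydrin DHN1/RAB-17, stood at 0 and 3.40 RPKM in the control, 515 and 377 in dehydration and 126 and 69.5 in rehydration, a rise of 7.72 on the log2 scale. LOC_Os03g45280, a dehydrin, differed in being abundant from the start, at 343 and 289 RPKM in the control, 1974 and 3293 in dehydration and 724 and 1057 in rehydration. LOC_Os03g20680, annotated as LEA protein 1, was the 1 locus of this list called in all 3 comparisons, at 0.491 and 0.401, then 66.9 and 68.3, then 13.2 and 12.5 RPKM. The 9 that rose kept a median of 26.7% of their dehydration level. LOC_Os01g21250 and LOC_Os03g28260 were not called on dehydration.

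ABA drives many genes of this family, through PYL receptors, PP2C phosphatases that block the signal, SnRK2 kinases and bZIP factors. Of 29 loci for ABA synthesis and signalling, a list the study chose on these samples, 12 rose and 9 fell on dehydration. Over all transcripts 8.97% were called higher and 13.4% lower in that comparison. The highest were NCED3 (LOC_Os07g05940), which makes the cleavage enzyme that limits ABA synthesis, with a log2 fold change of 6.57, PP2C9 (LOC_Os09g15670) with 5.47 and PP2C4 (LOC_Os03g16170) with 5.26. NCED3 stood at 0.303 and 0.330 RPKM in the control, 123 and 126 in dehydration and 59.8 and 80.4 in rehydration, and so kept 56.5% of its dehydration level. The gene of the ABA-activated factor bZIP23 (LOC_Os02g52780) stood at 16.3 and 13.8, then 191 and 229, then 96.2 and 132 RPKM and kept 54.2%. The lowest were VDE (LOC_Os04g31040) and CYP97A3 (LOC_Os02g57290), both for enzymes of xanthophyll metabolism, and the phospholipase D gene PLDα7 (LOC_Os05g40180), with log2 fold changes of -2.94, -2.68 and -2.74. Both NCED3 and bZIP23 were called higher than the control in rehydration, with log2 fold changes of 5.74 and 2.83.

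Independent microarrays of ABA-treated shoots, as listed by the study, gave 614 ABA-induced loci. Among them were 6 of the 9 loci (RAB16B, RAB16C, LOC_Os02g44870, LOC_Os01g50700, LOC_Os01g50910 and LOC_Os05g46480) and 7 of the 11 other LEA loci. Without those 6, 608 remained, of which 561 were tested. On dehydration 284 of them rose (50.6%) and 23 fell (4.10%), beside 8.97% and 13.4% of all transcripts. Their median log2 fold change was 1.53. In rehydration against control 40 were called higher (7.13%), beside 0.776% of all transcripts. Against dehydration 56 were called lower (9.98%) and 9 higher (1.60%), beside 1.01% and 4.32% of all transcripts. The 284 that rose kept a median of 40.4% of their dehydration level.

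The 5 tested transcripts closest to the mean RAB16 cluster profile were picked by Euclidean distance of centred log2(RPKM + 1) over the 6 libraries. All 5 rose on dehydration, which their selection on a rising profile fixed in advance. The closest was LOC_Os04g43200, annotated as the EF-hand protein EFA27, at a distance of 0.582, with 2.63 and 6.84 RPKM in the control, 750 and 453 in dehydration and 195 and 144 in rehydration. It shared with RAB16B and RAB16C the higher replicate 1 in both treated conditions. Next came a model of the jacalin-like lectin locus LOC_Os01g24710 at 0.754, LOC_Os01g45659 at 0.905, LOC_Os12g37519 at 0.910 and the PP2C family gene LOC_Os06g48300 at 0.985. By this distance the dehydrin LOC_Os02g44870, at 1.14, was nearer to the mean profile than any locus of the cluster itself. Of those, RAB16C lay at 1.27 and LOC_Os11g26750, whose smaller log2 fold change of 3.53 enters the mean, at 4.40. The order depends on the measure. By correlation with the mean profile, RAB16C and LOC_Os11g26790 (both 0.991) were nearer than LOC_Os02g44870 (0.986). RAB16B (0.985) and LOC_Os11g26750 (0.787) were not.

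Calls among the neighbours of the 9 loci on their chromosomes went in both directions. Of 61 listed neighbours, 5 on each side, 27 were tested and 31 stayed below 1 RPKM in every library. Of the 27, 5 rose on dehydration, 6 fell and 16 were not called, beside the 8.97% and 13.4% of all transcripts called higher and lower. Of the neighbours that rose, 3 lay beside LOC_Os05g46480, with log2 fold changes of 3.28 for LOC_Os05g46460, 1.58 for LOC_Os05g46490 and 2.87 for LOC_Os05g46510. LOC_Os05g46460 stood at 32.5 and 30.1 RPKM in the control, 328 and 297 in dehydration and 115 and 148 in rehydration, apart in all conditions. The others that rose were LOC_Os02g44910 (1.12) and the helix-loop-helix gene LOC_Os01g50940 (1.56). The gene next to Em, LOC_Os05g28200, went the other way, with -2.40 on dehydration and a call higher again on rehydration against dehydration.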

How the data were processed

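The authors made stranded mRNA libraries, mapped trimmed read pairs with at most 1 mismatch to the rice genome (MSU annotation) and deposited RPKM values for 6 libraries. RPKM divides reads by transcript length and by mapped reads, so a few very abundant transcripts can shift all others. No further scaling and no strand setting of the counting is given in the sources used here. Members and lists were chosen with earlier results of these data known.

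The 26790 transcripts that reached 1 RPKM in 2 or more libraries were fitted in limma 3.58.1 (R 4.3.3) with a trend, as log2(RPKM + 1) in 1 fit of 3 groups, with 3 residual degrees of freedom. The fit replaces the count test that the study used. Fold changes of low genes are understated by the pseudocount of 1. Reads behind a value were recovered as the smallest whole numbers that fit the RPKM and the study's mapped reads. A whole transcript length was not required. For the main models of LOC_Os02g44870, LOC_Os01g50700, LOC_Os05g46480, LOC_Os11g26790, RAB16B and RAB16C, these numbers fit no whole length. Their true reads are therefore a multiple of those used. The replicates were treated as independent pools. Counting intervals (95%) and the floor of 3 reads cover counting error only, and the intervals rest on these smallest read numbers. Named were all 9 loci, the root and seed markers, the 3 highest and 3 lowest called ABA genes, bZIP23 and the 5 closest profiles. Only part of the other LEA loci was named. Neighbours called higher on dehydration were all named, but only part of those called lower. Alternatives were other pseudocounts, filters, scalings and thresholds, summed models, a replicate block, 2-group fits and leaving out each library.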

Additional observations from a re-analysis of the deposited data

How the results depend on the processing

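No log2 fold change of the 9 loci changed its direction under any alternative. The number of loci called on dehydration was 9, and 8 with only the 2 groups compared in the fit, and it ranged from 5 to 8 without 1 library. For rehydration against control it was 4, and it became 3 with a pseudocount of 0.1, 2 with no filter, 0 with only the 2 groups compared, 8 at an adjusted p under 0.05 and 0 in every fit without 1 library. For rehydration against dehydration it was 4, and it became 0 with a pseudocount of 0.1, 0 with no filter, 0 with only the 2 groups compared and 0 to 1 without 1 library. With only the 2 groups compared or 1 library left out, fewer libraries enter the estimate of the spread, and a lone library is assumed to vary like the other groups. Over all transcripts, calls higher and lower with only the 2 groups compared were 1442 and 1635, 1 and 0, and 0 and 0 in the 3 comparisons, while 2113 transcripts were over 2-fold higher than control and 1678 over 2-fold lower than dehydration at an unadjusted p under 0.05 in the fit of all 6 libraries. The cause of the other changes was not tested.

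Calls on dehydration over all transcripts were 2403 higher and 3584 lower on the values as listed, 3341 and 2728 with median-ratio scaling and 2752 and 3049 with quantile normalization, and the median log2 fold change was -0.30, -0.015 and -0.032. For rehydration against dehydration the calls were 1156 and 271, 757 and 465, and 936 and 353, with medians of 0.24, -0.032 and -0.047. Median-ratio scaling lowered the share left in all 9 loci, to between 3.26% and 36.0%, and quantile normalization lowered it in 7 and raised it in 2. Against the spread of the single-library ratios the shift was largest from 39.7% to 30.9% and 29.7% in LOC_Os02g44870 and from 12.8% to 9.98% and 11.1% in LOC_Os01g50700.

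No source says that replicate numbers pair the libraries, and deviations of same-numbered libraries correlated at 0.0576, 0.130 and 0.197. With the replicate number as a block, 9, 3 and 4 loci were called in the 3 comparisons, the loss being RAB16B in rehydration against control (adjusted p = 0.0101).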
